A study of Homo sapiens with 30 samples.

Results

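The clustered histone genes are the replication-dependent histone genes that lie together on chromosomes 1 and 6, plus the single gene HIST4H4. They were taken as the rows of the FPKM table whose symbol starts with HIST1H, HIST2H, HIST3H or HIST4H, which gave 73 of the 26228 genes listed. By their symbols, 6 of these are genes of the linker histone H1, 18 of H2A, 20 of H2B, 14 of H3, and 15 of H4. HIST1H2APS1 and HIST2H2BC among them are annotated as pseudogenes. The clusters are unequal in size, with 56 members in HIST1, 13 in HIST2, 3 in HIST3, and 1 in HIST4.

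RNA-Seq had been done in SH-EP, an established human NB cell line that lacks MYCN amplification, and in 4 stable lines made from it by retroviral transfer of a MYCN transgene that an exogenous promoter drives. The MYCN is WT in one line, and it is mutant at T58 (T58A), at S62 (S62A), or at both residues (T58A S62A) in the rest. T58 and S62 are phosphorylation sites that control the turnover of the MYCN protein. Each of the 5 lines was treated for 6 hours with DMSO or with 1 μM CYC065, an inhibitor of CDK9 and CDK2, and each of the 10 groups had 3 libraries. MYCN was listed at 0 FPKM in all SH-EP libraries and at 5.08 to 20.1 FPKM in those of the MYCN lines.

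Histone genes of this kind are switched on as cells enter S phase, when new DNA has to be packed into nucleosomes. They have no introns, and their mRNAs end in a conserved stem-loop that is bound by SLBP in place of a poly(A) tail. When this processing fails or when a cell leaves the cycle, transcription can run on to a poly(A) site downstream, and a few members are known to give polyadenylated transcripts in many cell types. CDK9, the kinase that releases paused RNA polymerase II, is also known to take part in forming these 3′ ends. The libraries here were poly(A) selected, so a level in FPKM, fragments scaled to transcript length and to the fragments mapped in the library, covers histone RNA that passed this selection. More RNA and a larger share of it with a poly(A) tail cannot be told apart.

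The stem-loop is the feature that sets these mRNAs apart, and it was present in every member that could be searched. The 16-letter pattern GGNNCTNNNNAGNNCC, which reads the same on both strands, was searched in the 150 bases of the genome after each annotated stop codon. It was found after 67 of the 67 members with an annotated stop codon and after 189 of 19981 other protein-coding genes (0.946%). The match began a median of 35 bases after the stop codon, with a range of 22 to 67. Members held 10 different versions of it, of which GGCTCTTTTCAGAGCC was the commonest, with 39 members. The next 2, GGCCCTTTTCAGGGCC and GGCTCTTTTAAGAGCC, had 9 members each. The sequences below belong to the members on which the results turn, with the stem-loop in capitals and 5 flanking bases on each side, written 5′ to 3′ on the gene's strand. They come from the GRCh37 genome, at positions from the lifted GENCODE annotation.
HIST1H1C, chr6:26055967-26055992, minus strand: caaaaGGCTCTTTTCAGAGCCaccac
HIST1H2BK, chr6:27114140-27114165, minus strand: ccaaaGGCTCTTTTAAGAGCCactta
HIST1H2AC, chr6:26124892-26124917, plus strand: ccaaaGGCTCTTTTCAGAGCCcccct
HIST2H2BE, chr1:149857733-149857758, minus strand: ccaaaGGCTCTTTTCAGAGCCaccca
HIST1H3B, chr6:26031820-26031845, minus strand: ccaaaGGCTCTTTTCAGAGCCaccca
HIST1H3D, chr6:26197012-26197037, minus strand: ccaaaGGCTCTTTTCAGAGCCaacca
HIST1H3H, chr6:27778289-27778314, plus strand: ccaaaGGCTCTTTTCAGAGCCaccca
HIST1H4E, chr6:26205224-26205249, plus strand: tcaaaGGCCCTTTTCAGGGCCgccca
HIST3H2A, chr1:228645065-228645090, minus strand: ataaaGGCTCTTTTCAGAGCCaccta
HIST1H3B and HIST1H3D, with the largest positive and negative change after CYC065, share the commonest version but differ in a flanking base. HIST1H4E and HIST1H2BK carry other versions. A relation between the version and the change was not tested.

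Depth and cell identity were checked before the levels were read. FPKM carry no read counts, but the low values give each library's depth relative to the deepest one, which was 0.470 to 1 for DMSO and 0.293 to 0.554 for CYC065. A listed 0 does not show that a transcript was absent, since the estimate may have failed, and each library lists 40.6% to 45.8% of all genes at 0. Of the adrenergic markers, PHOX2A was at 0 in every DMSO library, whereas HAND2 was at a mean of 81.8 FPKM in SH-EP, and the mesenchymal marker VIM at 2496. The 5 markers of leukocytes, epithelium and endothelium summed to 2.84 to 36.9 FPKM, with CD68 the highest of them. Each of the 6 SH-EP libraries has an index sequence that a MYCN-line library also has, so that library pools and lines cannot be told apart.

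In DMSO, histone RNA in these poly(A)-selected libraries came mainly from 2 genes, HIST1H2BK, an H2B gene, and HIST1H1C, which encodes linker histone H1.2. Together they made up 50.3% to 73.0% of the summed FPKM of all members in each DMSO library, and the 10 members with the highest mean over all 30 libraries made up 79.8% to 93.3%. Over the 15 DMSO libraries, HIST1H2BK ranged from 98.5 to 300.5 FPKM with a median of 178. HIST1H1C ranged from 65.0 to 263 with a median of 117. Both lay above all other members in these libraries. Next came HIST1H2AC, an H2A gene, with a DMSO median of 36.2 FPKM, then HIST3H2A, an H2A gene outside the large cluster, with 32.1. Below them came the H2B genes HIST1H2BD (17.7), HIST1H2BC (12.1), HIST1H2BJ (10.4), HIST1H2BG (6.55), HIST1H2BH (6.29) and HIST2H2BE (5.65) and the H4 gene HIST1H4H (15.3). The ranges of these neighbours overlapped.

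**Figure D1:**
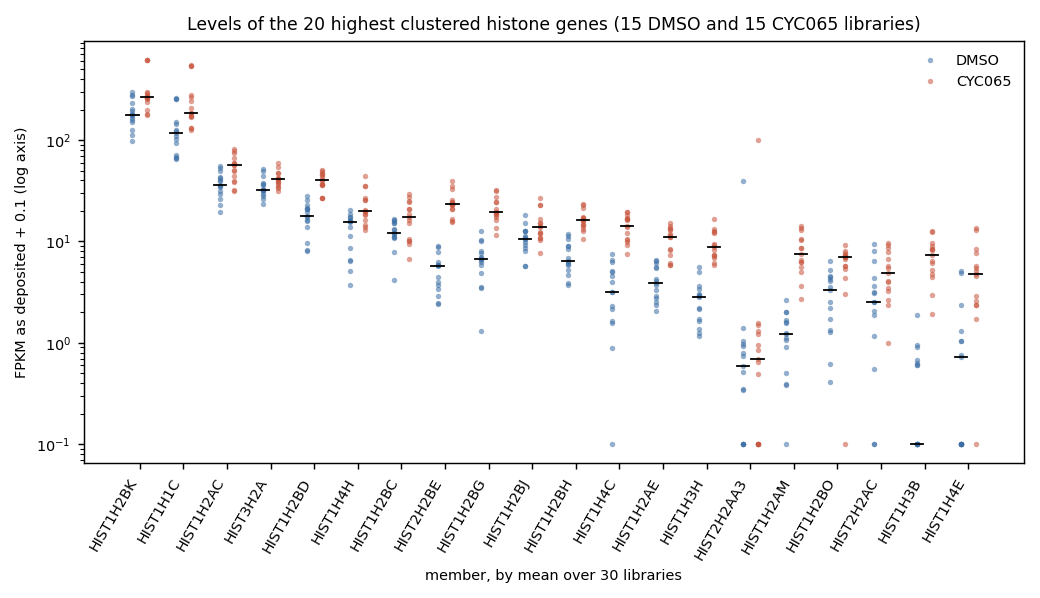
FPKM as deposited plus 0.1, on a log axis, of the 20 clustered histone genes with the highest mean over 30 libraries, with 1 point for each of 15 DMSO and 15 CYC065 libraries and a bar at the median. HIST1H2BK and HIST1H1C stand above the rest, and HIST2H2AA3 has 1 library far above the others in each treatment.

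Most members were hardly detected. Over the 30 libraries, 11 members averaged 10 FPKM or more, and 44 averaged 1 FPKM or more. In every library, 17 members were listed above 0, one of which, HIST1H2AD, stood at exactly 0.01 FPKM in 20 of 30 libraries. The 5 members at 0 in every library were HIST1H2AA, HIST1H2APS1, HIST1H2BA, HIST1H4F and HIST3H3. H3 and H4 genes were low as classes: the 14 H3 members summed to 6.3 to 21.0 FPKM in a DMSO library, against 149.9 to 375 for the 20 H2B members. The highest H3 member was HIST1H3H, with a DMSO median of 2.72 FPKM, and the single member of the HIST4 cluster, HIST4H4, had a DMSO median of 0.

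The known polyadenylated members were among the highest. Of the 7 members listed for this property, HIST1H2BK, HIST1H1C, HIST1H2AC, HIST1H2BD, HIST1H2BC and HIST2H2BE were in the 10 highest over the 30 libraries, and HIST4H4 was not tested. The list was made with earlier results of these data known and is no independent evidence. The annotation also separates the members by the length of their longest 3′ UTR, with 18 members at 368 to 4594 bases and 49 at 42 to 88 bases, and none between. The 18 members with the longer UTR had a median level in DMSO of 1.86 FPKM, and the 49 with the shorter one had 0.436. The 2 highest members do not follow this, since HIST1H1C has a longest annotated UTR of 47 bases and HIST1H2BK one of 57.

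Some members share sequence with near-identical copies, and their reads could be placed on either copy. Such a pair are the H2A genes HIST2H2AA3 and HIST2H2AA4. HIST2H2AA3 was at 0.394, 1.46 and 101 FPKM in the 3 WT CYC065 libraries, and at 0, 0.880 and 39.2 in T58A DMSO. HIST2H2AA4 was at 0, 1.27 and 57.2 FPKM in T58A CYC065. A single library thus held nearly all of the signal in these groups, and neither gene passed any test here. The part of read placement in this was not tested. Another 2 pairs overlap on the same strand in the annotation, HIST1H2AM with HIST1H3J and HIST1H2BC with HIST1H1T.

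The comparison of the MYCN lines with SH-EP in DMSO asked whether the transgenes changed histone RNA. Several of the highest histone genes were lower in the MYCN lines, HIST1H1C and HIST1H2BK among them, and none passed the test as higher in the mean of these lines. This was tested on log2(FPKM + 0.1) with limma in 1 fit over all 10 groups, for the 11575 genes that averaged 1 FPKM or more. Just inside this limit were HIST1H1B (1.01 FPKM) and HIST1H2AH (1.07), and just outside it HIST1H2BI and HIST1H2BM (0.95 each). Of the 44 members tested, 0 were higher and 7 lower at an adjusted p under 0.05, averaged over the 4 MYCN lines. Among all tested genes, 34.6% were higher and 26.3% lower. The share of members called lower, 15.9%, is below the background. The median log2 difference was -0.26 for the members and 0.06 for all tested genes. In spike-in scaled FPKM, a scale explained with the CYC065 results, 0 members were higher and 22 lower, with medians of -1.42 and -1.18, against 1.09% and 91.4% of all genes. HIST3H2A came nearest to a rise, with a mean difference of 0.31 (SE 0.14, limma adjusted p = 0.0509). It passed in 7 of 30 fits with 1 library left out, in the fit with a filter at 5 FPKM (41.1% of all genes higher), and in WT and T58A S62A taken alone, and its difference turned to -0.95 with spike-in scaling.

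HIST1H1C had the largest difference among the members called. It was at 254, 255 and 263 FPKM in SH-EP, at 117, 126 and 151 in WT, and at 65.0, 67.5 and 71.0 in T58A. In S62A it was at 66.3, 92.4 and 109 FPKM, and in T58A S62A at 102, 121 and 144. All 12 libraries of the MYCN lines lay below the 3 SH-EP libraries. The mean log2 difference was -1.38 (SE 0.10, limma adjusted p = 2.35e-11), which was made up of -0.97 for WT, -1.92 for T58A, -1.56 for S62A, and -1.09 for the double mutant.

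HIST1H2BK was lower in the MYCN lines too. It was at 270.1, 278 and 300.5 FPKM in SH-EP and at 182, 193 and 231 in WT. T58A was at 150.3, 156 and 163, S62A at 98.5, 113 and 126, and T58A S62A at 177, 178 and 204. Again, the SH-EP libraries did not overlap with any other, and those of S62A were the lowest. After spike-in scaling, the S62A libraries were the lowest for HIST1H1C as well, at 62.02, 75.6 and 78.2 against 85.2, 125 and 131 in T58A. The mean log2 difference was -0.82 (SE 0.07, limma adjusted p = 1.91e-10).

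HIST2H2BE, an H2B gene of the HIST2 cluster, was at 7.79, 8.61 and 8.98 FPKM in SH-EP. It was at 4.40, 5.77 and 5.77 in WT and at 5.65, 5.73 and 6.22 in T58A. It was lower still in S62A, at 2.39, 2.79 and 3.85 FPKM, and in T58A S62A, at 2.29, 3.28 and 3.63. As deposited, the levels formed 3 tiers that did not overlap, but in spike-in scaled FPKM those of WT and T58A S62A overlapped. The mean log2 difference from SH-EP was -1.03 (SE 0.11, limma adjusted p = 3.37e-08).

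The remaining 4 members called lower were HIST1H3H, HIST1H2AE, HIST1H2AC and HIST1H2BD. HIST1H3H, the highest H3 gene, had a mean log2 difference of -1.12 (SE 0.21, limma adjusted p = 4.85e-05). HIST1H2AE, an H2A gene, had one of -0.83 (SE 0.21). Those of HIST1H2AC and HIST1H2BD were -0.43 and -0.33, with limma adjusted p of 0.0081 and 0.014, and each lost its call without 1 of the SH-EP DMSO libraries, with adjusted p of 0.098 and 0.147. The largest positive differences, 1.68 for the H4 gene HIST1H4I and 1.13 for the H2B gene HIST1H2BF, did not pass (limma adjusted p = 0.176 and 0.327). Nor did those of HIST1H4D (0.97), HIST1H2AH (0.94) and HIST2H2BC (0.72), or the negative ones of HIST1H2BO (-1.08) and HIST1H4C (-1.01). The calls thus went one way, and 5 of the 7 are on the list of polyadenylated members.

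**Figure D2:**
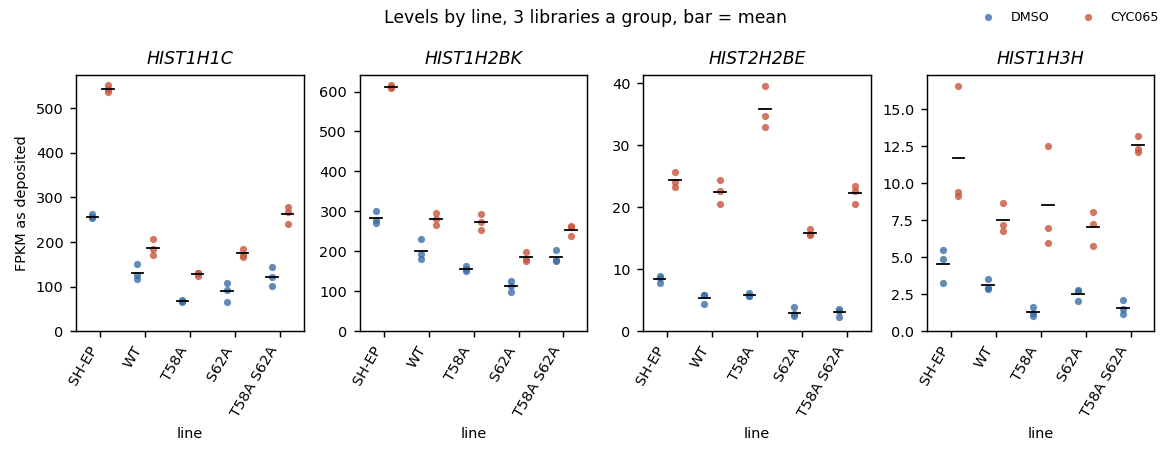
FPKM as deposited of HIST1H1C, HIST1H2BK, HIST2H2BE and HIST1H3H in each line, with points for 3 libraries a group and bars at the mean. In DMSO, SH-EP lies above every MYCN line for HIST1H1C, HIST1H2BK and HIST2H2BE.

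Genes of DNA synthesis went the other way on FPKM as deposited. Of 15 S phase genes such as PCNA, the sliding clamp of DNA polymerase, and MCM2, a subunit of the replicative helicase, 14 were higher in the MYCN lines and 0 lower. CCNE1, which encodes cyclin E1, had the largest difference, at 1.51 in log2. Of 8 histone chaperone genes, 5 were higher, NASP the most (0.94), which encodes a carrier of H3 and H4. SLBP, which encodes the protein that binds the stem-loop, had a mean log2 difference of 0.45 and was among 8 of 17 genes for histone transcription and 3′ end formation that were higher, against 1 that was lower. Of the 8 tested replication-independent histone genes, 3 were higher and 2 lower, with H3F3C at 0.79. These directions rest on the scale: in spike-in scaled FPKM, 14 of the 15 S phase genes, all 8 chaperones and all 17 factors of transcription and 3′ end formation were lower in the MYCN lines, with medians of -0.82, -0.86 and -1.02 beside -1.42 for the members. CD68 moved with the comparison, at a mean of 17.1 FPKM in SH-EP and 3.38 to 6.51 in the MYCN lines in DMSO. As deposited, 5 of 6 mesenchymal markers were lower in the MYCN lines, and so were the 2 tested adrenergic markers. The part of these markers in the result was not tested. Less RNA in each cell, a smaller share of it with a poly(A) tail and fewer cells in S phase cannot be told apart in such bulk samples.

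The 3 mutant lines were set against the WT MYCN line to ask whether loss of T58 or S62 mattered for these genes. They share the WT libraries as control. By a moderated F test over the 3 differences, 12 of the 44 tested members passed, which is 27.3% against 49.1% of all tested genes. With spike-in scaling, 23 passed, which is 52.3% against 90.7%. The values that follow are as deposited unless stated. The 5 with the largest F were HIST1H2BD, HIST1H2BK, HIST2H2BE, HIST1H1C and HIST1H2AC. S62A was lower than WT in all 5 of these genes, from -0.58 in HIST1H1C to -1.18 in HIST1H2BD. For HIST1H2BD, the S62A libraries were at 8.03, 8.21 and 9.44 FPKM and those of WT at 17.2, 20.7 and 20.8. T58A was lower than WT in HIST1H1C (-0.95, SE 0.13) and HIST1H2BK (-0.36, SE 0.09). T58A S62A was lower in HIST2H2BE (-0.79, SE 0.15), and it differed from WT in HIST1H1C by -0.11 (limma adjusted p = 0.592). For HIST1H3H, T58A and T58A S62A were lower than WT, by -1.20 and -0.96 in log2. With spike-in scaling, the S62A differences of the 5 genes passed, at -1.28 in HIST1H1C to -1.88 in HIST1H2BD. T58A passed for HIST1H1C and HIST1H3H. The other 3 calls were lost. They were T58A in HIST1H2BK (-0.05, limma adjusted p = 0.89) and T58A S62A in HIST2H2BE (-0.38, limma adjusted p = 0.193) and HIST1H3H (-0.56, limma adjusted p = 0.13). Among these genes, spike-in scaling also gave new calls. T58A S62A was higher than WT in HIST1H2AC (0.69, limma adjusted p = 0.0289) and HIST1H2BD (0.77, limma adjusted p = 0.0122). S62A was lower in HIST1H3H (-0.98, limma adjusted p = 0.00437). The scaling moves all genes of a comparison by about the same amount, downward for S62A and upward for T58A and T58A S62A. That the negative S62A differences passed again is thus no independent support for them. MYCN itself differed between these lines, with 5.08 to 6.59 FPKM in S62A and 11.7 to 13.7 in WT, and its part in these differences was not tested.

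CYC065 was compared with DMSO in spike-in scaled FPKM, where the ERCC spike-ins, added by cell number, were brought to the same median level in all libraries. On this scale nearly all tested genes fell, with a median log2 change of -1.20 over the 5 lines, and the histone genes were spread around 0. Of the 44 members tested, 14 (31.8%) rose and 8 (18.2%) fell. Among all tested genes, 1.57% rose and 94.4% fell. The median log2 change of the members was 0.17. Among members past the threshold, HIST1H3B, HIST1H4E and HIST1H2AK had the largest rises, and HIST1H3D, HIST3H2A and HIST1H2BC the largest falls. Of these, HIST1H3B and HIST1H2AK averaged 1 FPKM or more only through their CYC065 libraries, so their direction was in part fixed. HIST1H4D changed by -0.96, with an SE of 0.64 (limma adjusted p = 0.152).

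Most members are near the limit of detection in DMSO, and a member that passed the filter only through its CYC065 libraries had to be higher there. This holds for 9 of the 14 risers, whose rise the filter in part fixed. Of other tested genes with a DMSO mean under 1 FPKM, 22.7% rose, against 1.57% of all tested genes. Only 26 members had a mean of at least 1 FPKM in DMSO. With the filter set on the DMSO libraries alone, an alternative added after the data were seen, 5 of these 26 rose and 8 fell, against 1.05% and 96% of all genes. With no filter, 20 of the 68 members above 0 in some library rose and 8 fell, against 1.96% and 69.6%. On FPKM as deposited, without the spike-ins, 36 of 44 rose and 1 fell, against 46.9% and 39.8% of all genes, and the median changes were 1.32 and 0.10. The members thus lay above the median of all genes in each of these settings, while the number of members that rose changed with the scale and the filter.

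**Figure D3:**
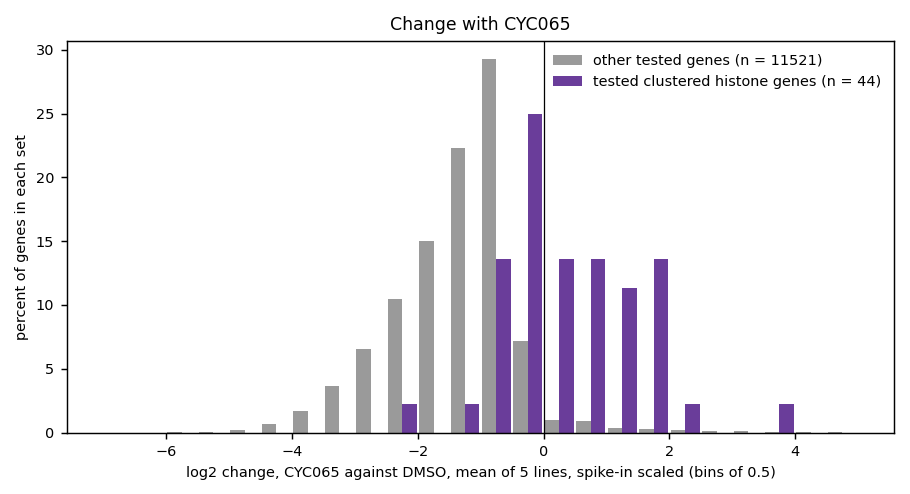
Percent of genes in bins of 0.5 of the log2 change with CYC065, averaged over 5 lines on spike-in scaled FPKM, for the 44 tested clustered histone genes and the other tested genes. Other genes pile up between -2 and -0.5, and 25 of the histone genes lie above 0.

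The members are described by their level in DMSO, which is also the baseline of the change, so that lower classes lean upward. The 8 tested members with a DMSO mean of at least 10 FPKM had a median log2 change of -0.72, and 0 rose and 7 fell, and among other genes of this level 0.635% rose and 97.1% fell. The 18 members between 1 and 10 FPKM had a median of 0.11, and 5 rose and 1 fell, against 1.47% and 95.0% of other genes of this level. In the same 2 classes, the medians of the other genes were -1.03 and -1.50. Under 1 FPKM in DMSO, 18 members had a median of 1.20, and 9 rose and 0 fell. Of 233 other genes of this level, 22.7% rose and 27.5% fell, with a median of 0.14. Both sets reached the limit of 1 FPKM only through their CYC065 libraries, so their direction was in part fixed. The members between 1 and 10 FPKM that rose were HIST2H2BE, HIST1H3H, HIST1H4C, HIST1H2AM and HIST1H4E.

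HIST1H3B, an H3 gene, had the largest change, but with a DMSO mean of 0.371 FPKM it passed the filter only through its CYC065 libraries and was not tested under the DMSO filter. Its values are given as a description. In spike-in scaled FPKM, it was at 0, 0 and 5.83 in SH-EP DMSO and at 2.14, 4.08 and 10.5 after CYC065. The WT line went from 0.735, 0.837 and 0.900 to 2.02, 2.65 and 3.02, and T58A from 0, 0 and 1.03 to 3.40, 4.36 and 5.87. In S62A, it was listed at 0 in all 3 DMSO libraries and at 1.53, 2.09 and 2.78 after CYC065, and in T58A S62A it went from 0, 1.03 and 1.34 to 8.61, 9.18 and 11.2. The treated libraries lay above the DMSO libraries in every line except SH-EP, where 1 DMSO library was higher than 2 treated ones. The log2 change on the scale with a pseudocount was 3.60 (SE 0.48).

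HIST2H2BE was the member with the tightest rise. In spike-in scaled FPKM, T58A went from 7.47, 10.8 and 11.1 to 24.0, 24.4 and 28.7, and T58A S62A from 4.62, 5.18 and 6.56 to 16.3, 18.4 and 22.1. S62A went from 1.72, 2.28 and 3.60 to 4.08, 4.59 and 5.18. In SH-EP, it was at 24.0, 28.0 and 29.8 in DMSO and at 27.2, 34.7 and 36.6 after CYC065, and in WT at 4.96, 7.37 and 9.51 and then at 8.12, 9.60 and 10.2. The treated and DMSO libraries were apart in the first 3 of these lines and overlapped in the last 2. The mean log2 change was 0.95 (SE 0.10, limma adjusted p = 1.44e-09).

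The other 4 risers with a DMSO mean of 1 FPKM or more were an H2A, an H3 and 2 H4 genes. The H4 gene HIST1H4E changed by 2.14 in log2 (SE 0.64), the H2A gene HIST1H2AM by 1.70 (SE 0.36), the H4 gene HIST1H4C by 1.12 (SE 0.43) and the H3 gene HIST1H3H by 0.59 (SE 0.13). HIST1H4E was at 0 in all 3 T58A S62A DMSO libraries and at 3.52, 6.75 and 8.15 spike-in scaled FPKM after CYC065, while in SH-EP its 3 treated libraries, at 0, 2.32 and 6.30, overlapped with those in DMSO. No H1 gene was among these risers. Of the 9 risers below this level, the H2A gene HIST1H2AK changed by 1.72, the H3 gene HIST1H3F by 1.71, and the H1 gene HIST1H1E by 1.53, and their direction is subject to the filter.

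HIST1H3D, another H3 gene, went the other way. In spike-in scaled FPKM, it went from 8.77, 12.0 and 14.02 to 0.846, 1.40 and 1.53 in SH-EP and from 2.59, 4.05 and 4.24 to 0.403, 0.675 and 0.914 in WT. T58A went from 1.34, 2.90 and 3.60 to 0.328, 0.879 and 0.982, and S62A from 0.862, 1.95 and 2.14 to 0.221, 0.317 and 0.347. T58A S62A went from 4.62, 4.98 and 5.03 to 0.666, 0.686 and 1.35. The treated libraries were below the DMSO libraries in all 5 lines. The mean log2 change was -2.32 (SE 0.18, limma adjusted p = 8.97e-13), and it was the single member that also fell on FPKM as deposited.

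**Figure D4:**
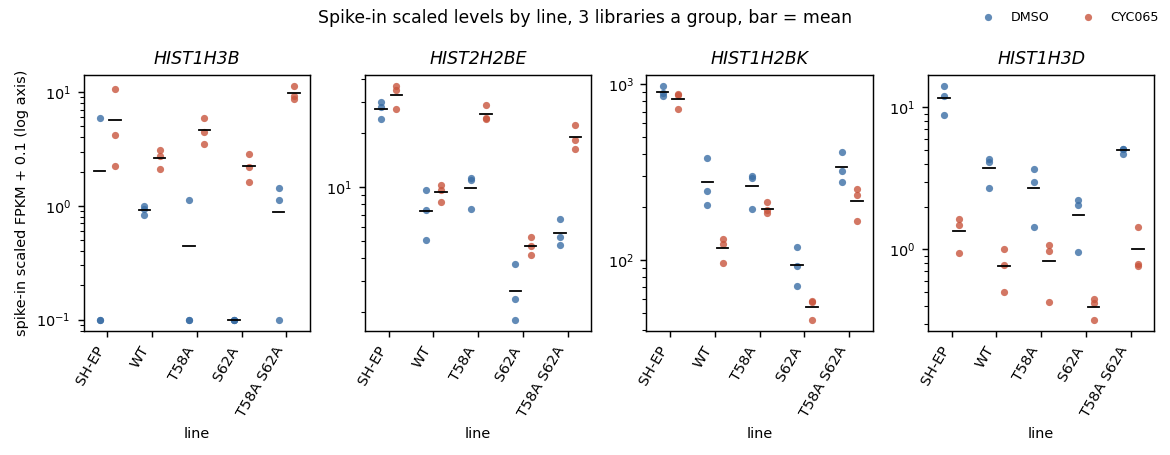
Spike-in scaled FPKM plus 0.1, on a log axis, of HIST1H3B, HIST2H2BE, HIST1H2BK and HIST1H3D in each line, with points for 3 DMSO and 3 CYC065 libraries and bars at the mean. HIST1H3B and HIST2H2BE rise with CYC065, the HIST1H2BK libraries overlap between treatments in SH-EP and T58A, and those of HIST1H3D are lower with CYC065 in every line.

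Most of the highest members fell. HIST1H2BK changed by -0.64 in log2 (SE 0.10, limma adjusted p = 8.82e-07), HIST1H1C by -0.42 (SE 0.09), HIST1H2AC by -0.80 (SE 0.10), HIST3H2A by -1.07 (SE 0.11), HIST1H2BJ by -0.89 (SE 0.14) and HIST1H2BC by -0.90 (SE 0.17), beside medians of -1.20 for all genes and -1.03 for other genes with a DMSO mean of at least 10 FPKM. HIST3H2A was below the second of these medians, and the distance of single members from them was not tested. HIST1H4H changed by -0.42 (SE 0.17), and its call was lost without 1 of 3 DMSO libraries, 1 of T58A and 2 of T58A S62A. These 7 fallers, unlike HIST1H3D, had positive changes on FPKM as deposited, so that their direction rests on the spike-ins. HIST1H2BD, with a DMSO level between theirs, changed by -0.14 (limma adjusted p = 0.162). As a list, the 6 tested polyadenylated members had 1 riser, HIST2H2BE, and 4 fallers.

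Lines differed in how many members passed. In SH-EP, 1 member rose and 4 fell, against 0.89% and 76.3% of all genes. In WT, 0 rose and 10 fell, against 0.769% and 93.7%. In T58A, 12 rose and 3 fell, against 1.24% and 84.5%. In S62A, 2 rose and 7 fell, against 0.959% and 90.2%, and in T58A S62A, 13 rose and 5 fell, against 1.84% and 76.4%. With the filter on DMSO libraries, the members that rose numbered 0 for SH-EP (0.58% of all genes), 0 for WT (0.476%), 5 for T58A (0.848%), 1 for S62A (0.684%) and 5 for the double mutant (1.32%). Of members with a DMSO mean of 1 FPKM or more, 5 had a positive change in all 5 lines (HIST1H2AM, HIST1H2BG, HIST1H4C, HIST1H4E and HIST2H2BE), and 6 a negative one. Of all 44 tested members, 12 had a positive change in all 5 lines, against 0.971% of other tested genes. Of these 12, 7 had a DMSO mean under 1 FPKM. The share of other genes with a negative change in all 5 lines was not computed.

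**Figure D5:**
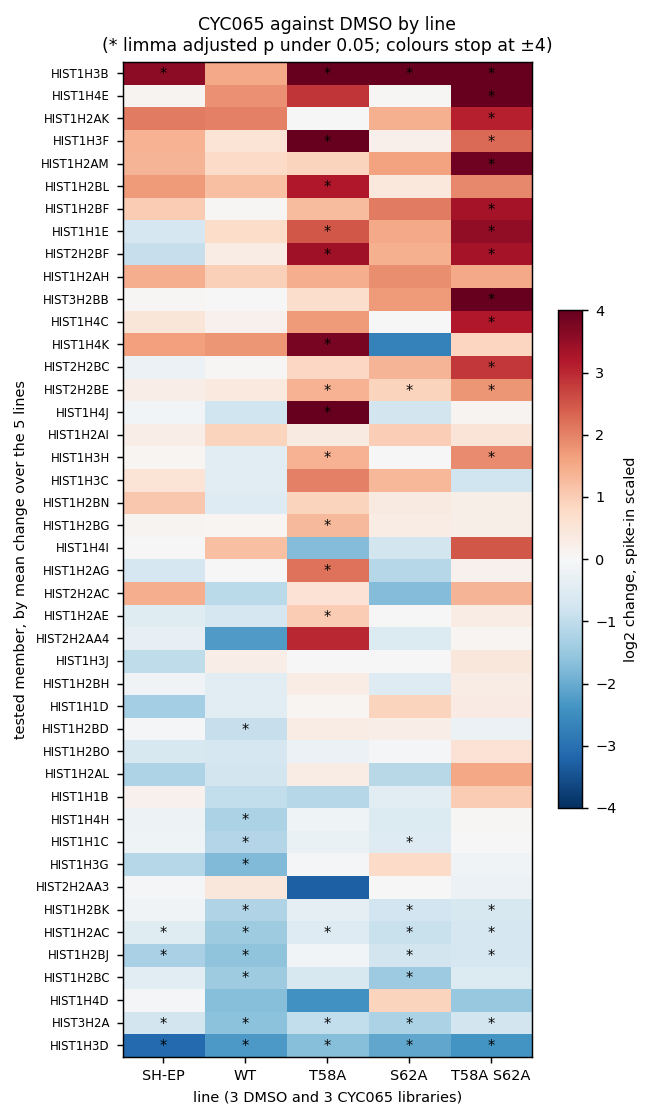
Log2 change with CYC065 on spike-in scaled FPKM in each of the 5 lines for the 44 tested clustered histone genes, ordered by their mean change, with an asterisk where the limma adjusted p was under 0.05. HIST1H3B is at the top and HIST1H3D at the bottom, and the T58A and T58A S62A columns hold 12 and 13 rises past the threshold.

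These counts do not test a difference between lines, which was done by the interaction of line and treatment. Averaged over the 4 MYCN lines, the response differed from that of SH-EP in 1 member, HIST2H2BE, where the change was more positive in the MYCN lines (0.85 in log2, SE 0.26, limma adjusted p = 0.0439). No member passed with a more negative change. Among all genes, 4.22% had a more positive and 1.81% a more negative change. The median difference was 0.39 for the members and -0.19 for all genes. The call of HIST2H2BE is weak, since it held in 12 of 30 fits with 1 library left out, with adjusted p of 0.0147 to 0.149, and each of the 6 SH-EP libraries was among those without which it was lost. The largest differences, 3.03 for HIST2H2BF, 2.74 for HIST1H1E and 2.55 for HIST1H4E, had SEs of 1.13 to 1.61 and did not pass. Those of HIST3H2BB (1.62) and HIST1H1D (1.57) did not pass either. The largest negative differences, which also missed the threshold, were in HIST2H2AC (-1.66), HIST1H4D (-1.12), HIST1H2BN (-0.84), HIST1H4K (-0.73) and HIST2H2AA3 (-0.67).

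In T58A S62A, the change was more positive than in SH-EP for HIST1H3H (1.82, SE 0.40, limma adjusted p = 0.00489), HIST2H2BE (1.52, SE 0.32) and HIST3H2BB (4.21, SE 1.25). These 3 of 44 (6.82%) are near the 5.27% of all genes with a more positive change, and 0.19% had a more negative one. HIST3H2BB, an H2B gene of the HIST3 cluster, had a DMSO mean under 1 FPKM and passed the filter only through its CYC065 libraries. As a description, it was at 0, 0 and 1.11 spike-in scaled FPKM in T58A S62A DMSO and at 3.43, 4.03 and 5.67 after CYC065. In SH-EP it was at 1.05, 1.40 and 2.04 and then at 1.15, 1.62 and 1.76. In WT, the change was more negative than in SH-EP for HIST1H2BK (-1.21 against -0.15, a difference of -1.07, SE 0.31), HIST1H1C (-1.18 against -0.18, a difference of -0.99, SE 0.27), HIST1H2AC (difference -0.93) and HIST1H2BD (difference -0.87), with limma adjusted p from 0.0312 to 0.0466. These 4 of 44 (9.09%) compare with 14.1% of all genes whose change was more negative in WT and 1.82% with a more positive one, and the median differences were -0.40 for the members and -0.51 for all genes. These comparisons share the SH-EP libraries.

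In spike-in scaled FPKM, genes that work with histones fell, as did 94.4% of all tested genes, but by unlike amounts. All 17 of the transcription and 3′ end factors fell, with a median log2 change of -1.37. NPAT, the coactivator of clustered histone genes, changed by -4.21 and its partner CASP8AP2 by -4.50, whereas SLBP changed by -1.81. The median of all tested genes was -1.20. All 5 decay factors, all 8 chaperones and all 15 S phase genes fell too, with medians of -1.48, -2.02 and -0.97. As deposited, these lists split instead, with 7 of the 17 factors and 11 of the 15 S phase genes higher, against 36 of the 44 clustered histone genes. The 8 tested replication-independent histone genes fell in spike-in scaled FPKM (4 rose and 4 fell as deposited), with a median of -1.27, and among them H2AFX, the gene of a DNA damage-marked variant whose 3′ end also holds the stem-loop pattern, changed by -1.51. Of other tested genes that hold the pattern, 1 of 123 rose and 118 fell, with a median of -1.15. The pattern leaves many letters free, and whether these matches are histone stem-loops was not tested. Their changes thus do not show how genes with this 3′ end respond.

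Other short or intronless genes mostly fell. All 40 tested members with a canonical transcript in the annotation have 1 exon, with lengths of 387 to 2224 bases. Of 255 other tested genes with 1 exon, 7.06% rose and 84.3% fell, with a median log2 change of -1.24. Of 3371 other genes no longer than 2224 bases, 1.63% rose and 94.7% fell, with a median of -0.89. Of 7614 longer ones, 0.919% rose and 98.1% fell, with a median of -1.39, so the shorter set fell less. The median length of the members was 492.5 bases, and the shorter set was not matched to them in length. CYC065 libraries had the lower relative depth, but fewer members were at 0 in them, 15 to 33 against 25 to 43 in DMSO. The part of transcript length, depth, RNA quality and library pool in these results was not tested.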

How the data were processed

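RNA was extracted by the authors from the 10 groups with ERCC spike-ins added by cell number, selected for poly(A), and sequenced strand-specifically. For the deposited FPKM, the authors used HISAT2 for alignment, with hg19/GRCh37 as the genome, and Cufflinks for the estimates. The annotation they used is not given in the sources used here. The deposited FPKM are not scaled to spike-ins and carry no read depth, so no count test or counting interval was used.

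Columns name line and treatment, and their suffixes differ from the labels' replicate numbers. Libraries are thus replicates without a number, and nothing says that they came from separate cultures. P-values measure the spread between these libraries, which may be technical. Of the columns, 0 belonged to other samples, and 0 pairs of libraries were identical.

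Genes that averaged 1 FPKM or more (11575) were tested on log2(FPKM + 0.1) with limma 3.58.1 in R 4.3.3 (lmFit, eBayes with trend), in 1 fit of 10 groups, with Benjamini-Hochberg adjustment over all of them and a threshold of 0.05. The deposited scale served for lines. For CYC065, FPKM were scaled by the median log2 level of 55 of 92 spike-ins, which averaged 1 FPKM or more. With a pseudocount, the change of a low gene is understated. Members and lists were chosen with earlier results of these data known. Named were the 10 highest members, the 5 largest rises and falls of each averaged contrast, the 5 largest F values, the polyadenylated list, the highest member of each type and cluster, members at 0 throughout, and up to 3 genes of each related list for each contrast. HIST1H2AE, HIST1H2AD, HIST1H2BH, HIST2H2AA4, HIST1H3J and HIST1H1T were named outside this rule after their values were seen. Of the related genes, the text gives only some of those the rule names.

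For the stem-loop, 69 of 73 members matched 1 gene of the lifted GENCODE annotation, older symbols through RefSeq. Other settings tried were a pseudocount of 1 or 0.01, a filter of none or 5 FPKM, the other scaling, centred libraries, fits on the compared groups alone, leaving out each library, and, added later, a filter on DMSO libraries. Tested on simulated data for CYC065 against DMSO with 11575 genes, the fit recovered 192 of 200 genes changed by 1 in log2 (96%) and called 15 unchanged genes. The simulation drew normal noise on the deposited scale, whereas the CYC065 test used spike-in scaled FPKM, where 94.4% of tested genes fell. It did not model values listed at 0, so the 96% does not cover members near 0 in DMSO.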

Additional observations from a re-analysis of the deposited data

Results flagged for a closer look

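Groups of 3 libraries are too small to look for single outlying libraries. The results listed here are differences in the response to CYC065 between a MYCN line and SH-EP, tested as the interaction in limma on spike-in scaled FPKM. HIST2H2BE differed by 0.85 averaged over the 4 MYCN lines (adjusted p = 0.0439) and by 1.52 in T58A S62A (adjusted p = 0.00348). In T58A S62A, HIST1H3H differed by 1.82 (adjusted p = 0.00489) and HIST3H2BB by 4.21. HIST3H2BB, with a DMSO mean of 0.385 FPKM, passed the filter only through its CYC065 libraries, and its difference is given as a description. In WT, HIST1H1C differed by -0.99 (adjusted p = 0.0312), HIST1H2AC by -0.93 (adjusted p = 0.0466), HIST1H2BD by -0.87 (adjusted p = 0.0458) and HIST1H2BK by -1.07 (adjusted p = 0.0370). The 3 members in T58A S62A are 6.82% of those tested, near the 5.27% of all genes with a more positive change there, and the 4 in WT are 9.09%, below the 14.1% of all genes with a more negative one.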

How the results depend on the processing

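No paired analysis was possible because column suffixes and labelled replicate numbers differ, and the planned replicate block was not run. Between spike-in scaled and deposited FPKM, the median of all genes moved from -1.20 to 0.10 for CYC065 and from -1.18 to 0.06 for the lines. For CYC065, the members that rose numbered 36 as deposited (46.9% of all genes) and 38 with libraries centred (53.9% of all genes), against 14, and those that fell 1 and 1, against 8, with median changes of 1.32 and 1.49. Filters moved the risers to 3 of 15 members (at 5 FPKM, 1.45% of all genes) and 5 of 26 (on DMSO libraries, 1.05%), with medians of -0.42 and -0.12. The median was 0.42 with a pseudocount of 0.01 and 0.42 with no filter. As deposited, the log2 changes of members that fell were positive: HIST1H1C 0.93, HIST1H2AC 0.55, HIST1H2BC 0.44, HIST1H2BJ 0.45, HIST1H2BK 0.71, HIST1H4H 0.92 and HIST3H2A 0.27, as were those of HIST1H1D 1.14, HIST1H2BD 1.21 and HIST1H2BO 0.99. With libraries centred they were HIST1H1C 1.09, HIST1H1D 1.30, HIST1H2AC 0.71, HIST1H2BC 0.60, HIST1H2BD 1.37, HIST1H2BJ 0.61, HIST1H2BK 0.88, HIST1H2BO 1.16, HIST1H4H 1.08 and HIST3H2A 0.44. For the lines, spike-in scaling gave 22 members lower and a median of -1.42, and HIST3H2A changed from 0.31 to -0.95. The median was -0.10 with no filter and -0.43 at 5 FPKM, where 1 member, HIST3H2A, was higher. For the response of the MYCN lines minus that of SH-EP, 2 members were higher with a pseudocount of 1 (8.47% of all genes). As many were higher as deposited (13%) and with libraries centred (14%), and 0 at 5 FPKM (3.2%). Of the members, 1 was lower with no filter (1.47% of all genes), 1 as deposited (20.3%) and 1 with libraries centred (16.4%). The median of the members was -0.0954 at 5 FPKM and 0.644 with libraries centred. In the mutants, spike-in scaling gave 23 members (90.7% of all genes) against 12 (49.1%). Leaving out each library in turn gave 0 to 1 members higher and 6 to 8 lower for the lines, with medians of -0.38 to -0.21. It gave 14 to 15 risers, 7 to 9 fallers and medians of 0.09 to 0.32 for CYC065, 0 to 2 members higher and medians of -0.0324 to 0.6445 for the difference in response, and 9 to 14 members for the mutants. The cause of these shifts was not tested. Depth is unknown beyond its relative value, which limits what the members near 0 in DMSO can show.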
